A study of Homo sapiens with 20 samples.

Results

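The retinoic acid pathway genes described here are 9 genes that make, bind, sense or break down retinoic acid, chosen by their symbols from 60623 gene identifiers in the tables of pancreatic progenitors (PPs). They are *CYP26A1* and *CYP26B1*, *DHRS3*, *ALDH1A1*, *CRABP1* and *CRABP2*, and *RARA*, *RARB* and *RARG*, and each was found by its Ensembl identifier in every table. The study compared wild-type (WT) cells with cells that lack ALKBH5 (A5-KO), an enzyme that removes the m6A mark (N6-methyladenosine) from RNA. All cells came from MEL1, a human embryonic stem cell line that the study's methods give as MEL1 INS GFP/W, with a GFP reporter at the insulin gene, and the A5-KO line was made with CRISPR-Cpf1 guides to the first exon of *ALKBH5* and grown from picked colonies, so a difference between genotypes is also one between clonal lines. RNA was sequenced at 2 stages. Islet-like organoids (hILOs) gave 2 WT and 2 A5-KO libraries, and PPs gave 2 libraries for each genotype at 0, 1, 2 and 3 h of actinomycin D (Act D, 1 μg/ml), which stops transcription, so 16 in all. Both genotypes at both stages had been given 2 μM retinoic acid on days 7 to 8 of differentiation, long before the RNA was taken. The media in the labels run to day 14 for PPs and day 22 for hILOs, whereas the study's methods name a further hILO medium after that, so the day on which the hILOs were taken is uncertain. The labels number the replicates without saying whether they were separate cultures. The study calls the Act D replicates biological, and p-values measure the spread between these libraries.

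Retinoic acid is made from vitamin A in 2 oxidation steps and is broken down by the CYP26 enzymes. In the nucleus it binds the receptors RARA, RARB and RARG, which sit on DNA together with RXR partners and switch target genes on. *CYP26A1*, *RARB* and *DHRS3* are themselves textbook targets, so the pathway restrains itself. In the embryo the signal patterns the foregut and is needed for the pancreas to form, which is why retinoic acid is given in protocols that lead from stem cells to islet cells.

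The PP libraries held between 30516384 and 35206514 reads (median 33594062), recovered from the deposited CPM, reads scaled to the same total in each library. The hILO values are TPM, scaled for gene length and library total, from which the number of reads cannot be had. *ALKBH5* was at 78.8 and 81.9 TPM in WT hILOs against 4.16 and 3.42 TPM in A5-KO hILOs, and at 149 and 172 CPM in WT PPs against 19.1 and 18.8 CPM in A5-KO PPs at 0 h. At 0 h the 6 progenitor markers summed to 1039 and 815 CPM in WT PPs against 820 and 742 CPM in A5-KO PPs. These ranges overlap. In hILOs they summed to 352 and 345 TPM in WT against 328 and 320 TPM in A5-KO. The insulin and glucagon genes *INS* and *GCG* were at 0 in PPs at 0 h. The 5 endocrine markers summed to 34284 and 36621 TPM in WT hILOs against 27546 and 26340 TPM in A5-KO hILOs. Hepatic markers also moved with the genotype: the 8 of them summed to 1092 and 1141 CPM in WT PPs against 1898 and 1924 CPM in A5-KO PPs, and to 19738 and 20091 TPM against 32426 and 32139 TPM in hILOs. At each stage the A5-KO pair stood wholly above the WT pair for 6 of the 8 and wholly below it for 1. In hILOs most of the higher sum was *TTR*, at 7527 and 7550 TPM in WT against 18674 and 18749 TPM in A5-KO, with *ALB* and *TF* also called higher, *FGB* called lower and the other 4 not called. The 8 mesenchyme markers summed to 11.1 and 6.49 TPM against 30.5 and 24.8 TPM in hILOs and to 109.8 and 117.6 CPM against 158.1 and 168.6 CPM in PPs. The 4 intestinal markers summed to 399.6 and 401.8 TPM against 514.7 and 507.5 TPM in hILOs and to 339.7 and 319.5 CPM against 432.7 and 427.4 CPM in PPs, and the 4 pluripotency markers to 124.4 and 121.3 CPM against 248.4 and 234.1 CPM in PPs. Of the pluripotency markers, *NANOG* was at 0 in A5-KO PPs at 0 h. Only 2 of the 4 had enough reads to be tested there, and 1 was called higher. Within these lists the genes did not all move together. Of the mesenchyme markers, the A5-KO pair stood wholly above the WT pair for 4 and wholly below it for 2 in hILOs. In PPs the counts were 5 and 2. Those of the intestinal markers were 3 and 1 in hILOs and 2 and 0 in PPs. The pluripotency markers had 1 above and 1 below in PPs, and the endocrine markers 1 above and 4 below in hILOs. The progenitor markers had 1 above and 2 below in PPs, and 2 above and 4 below in hILOs. The part of these markers in the differences between genotypes was not tested. In bulk RNA, fewer cells of a type and less RNA per cell cannot be told apart. The replicates at WT 2 h differed more than any other pair, with a chi-square per degree of freedom of 37.8 over genes against 4.28 to 25.3 for the other pairs.

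The members spanned a wide range of levels in PPs. Per kilobase of exon in WT PPs at 0 h, *ALDH1A1* stood at 52.5 CPM per kb, above 95.4% of genes with at least 1 CPM. It was followed by *CRABP2* at 13.9, *CYP26B1* at 12.1, *DHRS3* at 9.00, *RARA* at 4.33 and *RARG* at 1.54 CPM per kb. The neighbours *CRABP2* and *CYP26B1* were at 14.2 and 13.6 against 12.5 and 11.6 CPM per kb in the 2 libraries, which do not overlap. *CRABP1* stood at 0.56 CPM per kb, and *RARB* and *CYP26A1* came last at 0.062 and 0.035 CPM per kb. In WT hILOs, where TPM is already per length, *ALDH1A1* was above 99.2% of genes with at least 1 TPM, *DHRS3* above 87.4%, *RARA* above 60.4%, *CYP26B1* above 48.0%, *CRABP2* above 27.3% and *RARB* above 17.1%.

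*CYP26A1* (chromosome 10, 93073475 to 93077885, plus strand of GRCh38), which breaks down retinoic acid and is its most sharply induced target in many cells, was close to absent in PPs. It had between 0 and 4 reads per WT library, 13 in the 8 libraries together, and between 0 and 3 reads per A5-KO library, 7 in all. Of the WT libraries 2 had none, and of the A5-KO libraries 5 had none, where a count of 0 allows up to 3 reads or 0.0852 to 0.0983 CPM. A difference between genotypes was not detectable at this depth. About 25.3% of its exon bases are shared with a second annotated gene on the same strand, so even these reads may not all be its own. WT hILOs had 0.31 and 0.26 TPM of *CYP26A1* and A5-KO hILOs 0.57 and 0.46 TPM, below the mean of 1 TPM needed for a test.

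*RARB* (chromosome 3, 24687887 to 25597932, plus strand), the receptor whose own promoter answers to retinoic acid, was nearly as low. In PPs it had 2 to 26 reads per WT library, 98 in all, and 8 to 34 reads per A5-KO library, 140 in all. At 0 h it was at 0.75 and 0.43 CPM in WT and at 1.05 and 0.85 CPM in A5-KO. Values fell to 0.16 and 0.06 CPM in WT and 0.32 and 0.26 CPM in A5-KO after 2 h of Act D, and stood at 0.54 and 0.57 CPM in WT and 0.57 and 0.28 CPM in A5-KO at 3 h. These are too few reads for the PP fits, which asked for a mean of at least 1 CPM. WT hILOs had 2.96 and 2.23 TPM and A5-KO hILOs 2.47 and 2.30 TPM, which overlap. The 3 genes with the most similar course over the 16 PP libraries were *MRPL3* (Pearson r = 0.948), *VDAC1P8* (0.948) and *ABCD3* (0.942) on the log2(CPM + 1) scale. These correlations describe libraries that share times and depth, with few reads of *RARB* behind each value.

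The promoter windows of both of these scarce members hold a match to the classical retinoic acid response element, a pair of 6-base sites in the same direction with 5 bases between them. The site searched was AGGTCA, or a variant of it that reads AGTTCA, one that reads GGGTCA or one that reads GGTTCA, on both strands, in windows of 300 bases from 250 before to 50 after each start site in RefSeq (GRCh38.p14). All 9 members had a window, 17 windows in all. The element with 5 bases between its sites was found in the windows of *RARB* and *CYP26A1* and in those of no other member, and it was in 31 of 35116 windows of all genes, or 0.0883%. With 1 or 2 bases between the sites no member held it, as against 0.131% and 0.0399% of all windows. The stretches that hold the element, with both sites in capitals, read as follows on the plus strand at chr3:25428163-25428262 and chr10:93073761-93073860. *RARB* had 4 windows, and the element lay 53 bases before the start site of 1 of them. *CYP26A1* had 2 windows. There the element lay 90 bases before the start site of 1 of them, and the sites read in the opposite direction to the gene. Both elements lie within the gene spans given above, so these start sites are not the outermost ones.
RARB: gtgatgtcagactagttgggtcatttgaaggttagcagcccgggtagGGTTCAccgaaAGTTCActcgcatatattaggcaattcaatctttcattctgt
CYP26A1: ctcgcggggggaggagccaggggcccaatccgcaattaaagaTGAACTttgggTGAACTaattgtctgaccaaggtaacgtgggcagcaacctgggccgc
A match of letters is no measurement of binding, and no promoter readout was analysed here.

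*CRABP1* (chromosome 15, 78340353 to 78348225, plus strand), which holds retinoic acid in the cytoplasm, was the third member under the limit in PPs. It had 18 to 26 reads per WT library and 9 to 40 per A5-KO library, or 0.52 to 0.85 CPM against 0.28 to 1.28 CPM, and the genotypes overlapped. WT hILOs had 0.66 and 0.43 TPM and A5-KO hILOs 0.10 and 0.39 TPM, and the A5-KO libraries were the further apart. An annotated gene on the other strand shares 45.9% of its exon bases, and the library kit named in the labels does not mark strand.

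In hILOs the genotypes differed in 2 of the 6 members that could be tested. *ALDH1A1* rose and *CRABP2* fell in A5-KO. Here a gene was called when limma's Benjamini-Hochberg adjusted p was below 0.05 and the change was over 1.5-fold on log2(TPM + 1), where the added 1 shrinks the changes of weakly expressed genes. By that rule 4.09% of the 17300 genes tested were lower and 2.7% were higher, against 1 member lower and 1 higher. The median difference was -0.14 on the log2 scale over the 6 members and -0.06 over all genes. *CYP26A1*, *CRABP1* and *RARG* did not reach the mean of 1 TPM and were not tested.

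**Figure D1:**
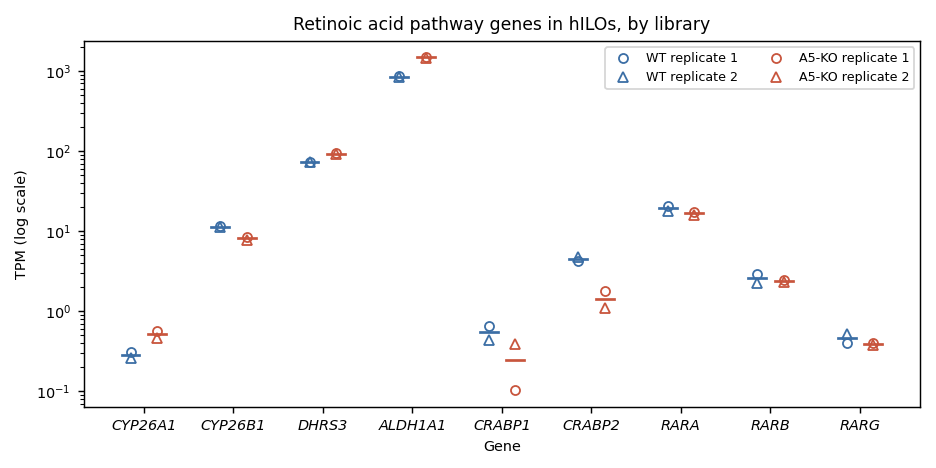
TPM of the 9 members on a log axis in the 4 hILO libraries, with WT in blue and A5-KO in red, 1 symbol per replicate and a bar at the mean of 2. *ALDH1A1* reaches 1481 and 1473 TPM in A5-KO against 867 and 839 TPM in WT, while the *CRABP2* values of A5-KO lie under those of WT.

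*ALDH1A1* (chromosome 9, 72900671 to 73080442, minus strand) encodes a retinaldehyde dehydrogenase, which carries out the last step to retinoic acid and also oxidises other aldehydes. WT hILOs had 867 and 839 TPM and A5-KO hILOs 1481 and 1473 TPM. Both A5-KO values were far above both WT values, and the replicates nearly coincided. The difference was 0.79 on the log2 scale (SE 0.030, 95% interval 0.71 to 0.87, limma adjusted p = 0.0025), a 1.73-fold rise. The call held with each of the 4 libraries left out in turn. The summed hepatic, mesenchyme and intestinal markers were higher in the same libraries and the summed endocrine markers lower, and their part in this difference was not tested.

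*CRABP2* (chromosome 1, 156699606 to 156705816, minus strand) encodes the binding protein that delivers retinoic acid to the receptors. WT hILOs had 4.22 and 4.74 TPM and A5-KO hILOs 1.77 and 1.104 TPM, so both A5-KO values were under both WT values. The difference was -1.18 on the log2 scale (SE 0.22, 95% interval -1.76 to -0.60, limma adjusted p = 0.041). The adjusted p rose to between 0.084 and 0.16 when any 1 of the 4 libraries was left out, so the call rests on all of them.

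Among the other members in hILOs, *DHRS3* (chromosome 1, 12567910 to 12618210, minus strand), a reductase that turns retinaldehyde back to retinol and so slows the making of retinoic acid, had 73.5 and 73.0 TPM in the WT libraries against 94.6 and 91.5 TPM in the A5-KO libraries. The libraries did not overlap, and the difference of 0.34 (SE 0.046, limma adjusted p = 0.023) was under 1.5-fold. *CYP26B1* (chromosome 2, 72129238 to 72147862, minus strand), the other degrading enzyme, had 11.6 and 11.3 TPM in the WT libraries against 8.59 and 7.75 TPM in the A5-KO libraries. That was lower in both A5-KO libraries, by -0.44 (SE 0.11), and did not pass the test (limma adjusted p = 0.077). The receptors moved least. *RARA* (chromosome 17, 40309180 to 40357643, plus strand) had 20.5 and 18.0 TPM against 17.3 and 16.1 TPM, a difference of -0.19 (95% interval -0.47 to 0.09, limma adjusted p = 0.29). For *RARB* it was -0.08 (95% interval -0.60 to 0.44, limma adjusted p = 0.81). *RARG* (chromosome 12, 53210567 to 53232980, minus strand) had 0.40 and 0.52 TPM in the WT libraries against 0.40 and 0.38 TPM.

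In PPs before Act D, no member was called in either direction among the 6 tested by limma. At an unadjusted p under 0.05 there was 1 member lower and 1 higher, and edgeR and DESeq2 on the recovered reads also called 0 in each direction. Over the 13911 genes tested, 1.13% were called lower and 1.57% higher. The medians were -0.04 over the members and 0.03 over all genes.

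The member nearest to a call at this stage was again *ALDH1A1*, at 151.9 and 146.6 CPM in WT and at 193.9 and 211.8 CPM in A5-KO. The A5-KO libraries were above the WT libraries, by 0.44 (SE 0.077, limma adjusted p = 0.014), a 1.36-fold difference that stays under the limit of 1.5-fold. *RARG* went the other way, at 7.75 and 8.03 CPM in WT and at 5.22 and 5.74 CPM in A5-KO. Its groups did not overlap, and the difference of -0.46 (SE 0.16) did not pass the test (limma adjusted p = 0.15). *DHRS3*, at 35.3 and 28.0 CPM in WT and 39.1 and 35.4 CPM in A5-KO, differed by 0.24 (95% interval -0.06 to 0.53). *CYP26B1*, at 60.7 and 56.0 CPM in WT and 56.5 and 51.6 CPM in A5-KO, differed by -0.11 (95% interval -0.32 to 0.11). *CRABP2* was at 15.4 and 14.7 CPM in WT and at 9.49 and 14.7 CPM in A5-KO, so 1 A5-KO library set most of its difference of -0.32 (95% interval -0.74 to 0.10). *RARA* was at 23.1 and 18.0 CPM in WT and 22.3 and 19.4 CPM in A5-KO, where the A5-KO values lay between the WT values, and differed by 0.03 (95% interval -0.30 to 0.36).

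**Figure D2:**
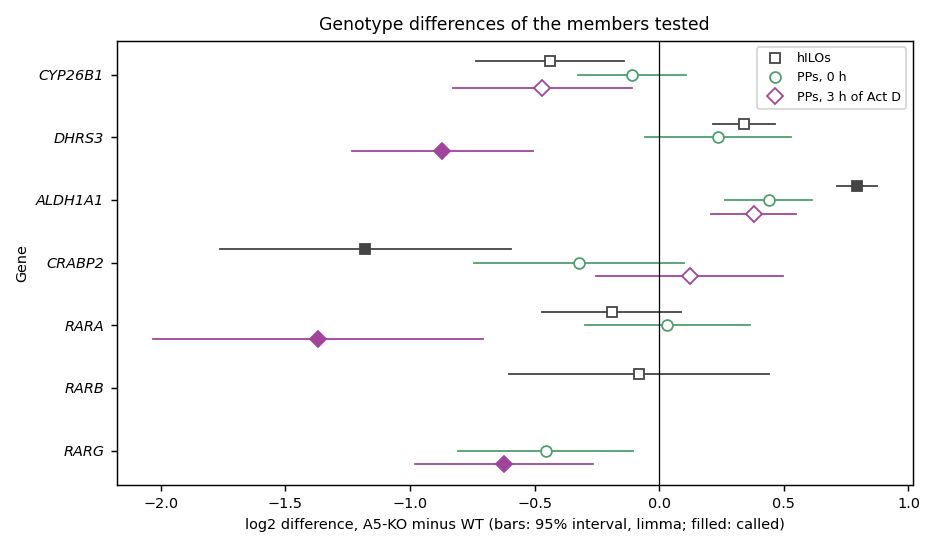
Differences between genotypes (A5-KO minus WT, log2 scale) of the members tested, in hILOs (squares), PPs at 0 h (circles) and PPs at 3 h of Act D (diamonds), with 95% intervals from limma and filled symbols for called genes. *ALDH1A1* lies above 0 at all 3, and *RARA* and *DHRS3* fall to -1.37 and -0.87 at 3 h alone.

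Under Act D each CPM value is relative to the RNA that remains in its library, so a rise means slower loss than the average transcript. The members split into 3 kinds of course. *RARA*, *CYP26B1* and, in A5-KO, *DHRS3* fell. *RARG* drifted down with no call in either genotype. *ALDH1A1* and *CRABP2* did not fall.

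**Figure D3:**
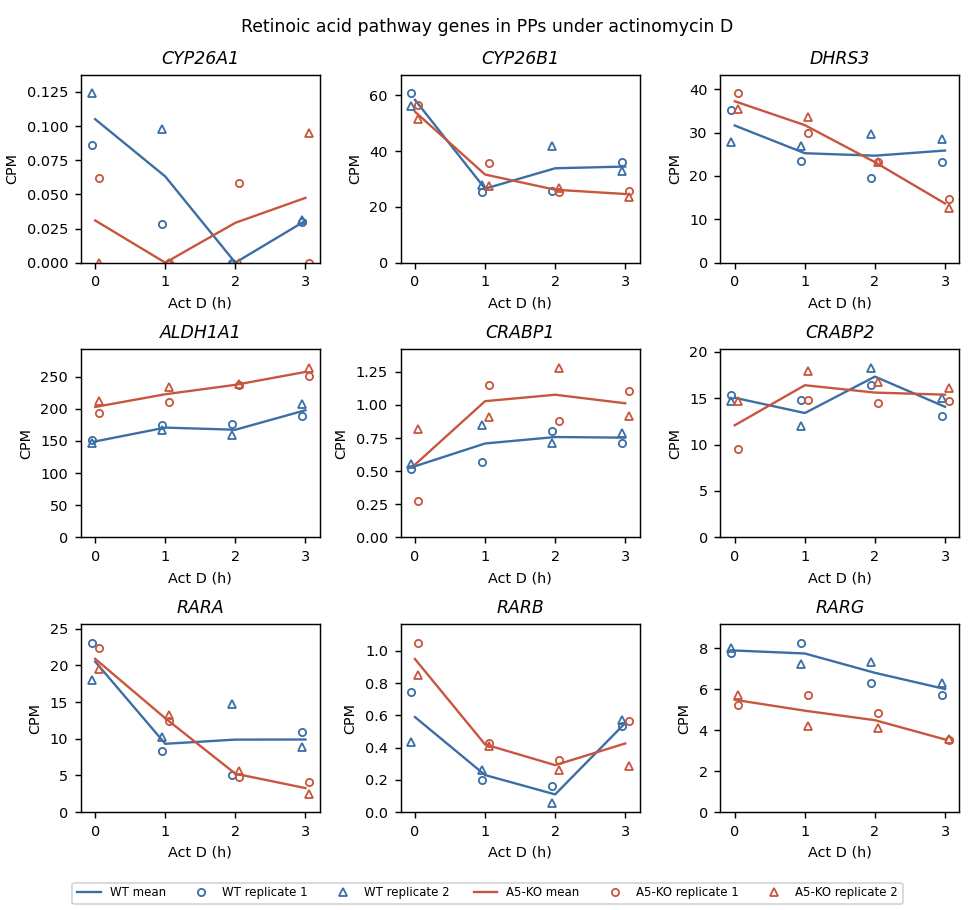
CPM of the 9 members in PPs against hours of Act D, with WT in blue and A5-KO in red, symbols for the 2 replicates and lines through their means. At 3 h both A5-KO values of *RARA* (4.09 and 2.47 CPM) and *DHRS3* (14.6 and 12.7 CPM) lie under both WT values, and those of *ALDH1A1* lie above the WT values at every time.

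*RARA*, the receptor expressed in most tissues, had the largest estimated fall over 3 h of the members tested in both genotypes, while over the first hour the estimates for *CYP26B1* were larger. In WT it went from 23.1 and 18.0 CPM at 0 h to 8.35 and 10.3 CPM at 1 h, was split at 5.04 and 14.7 CPM at 2 h, and was at 10.9 and 8.91 CPM at 3 h. In A5-KO it went from 22.3 and 19.4 CPM to 12.4 and 13.2 CPM at 1 h, 4.85 and 5.64 CPM at 2 h and 4.09 and 2.47 CPM at 3 h. At 1 h the A5-KO values were the higher ones, and at 3 h both were well under both WT values. The change from 0 to 1 h was -1.06 in WT (SE 0.31, limma adjusted p = 0.021) and -0.66 in A5-KO (SE 0.31, limma adjusted p = 0.11) on the log2(CPM + 1) scale, and the WT call was lost without the first library at 0 h or either at 1 h (adjusted p 0.055 to 0.18). The change from 0 to 3 h was -0.98 in WT (SE 0.31, limma adjusted p = 0.045) and -2.38 in A5-KO (SE 0.31, limma adjusted p = 9e-06). The WT call was lost when any 1 of the 4 WT libraries at 0 and 3 h was left out (adjusted p 0.073 to 0.33). About 11.7% of the exon bases of *RARA* are shared with *RARA-AS1* on the other strand, and reads of the 2 cannot be told apart in unstranded libraries.

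*DHRS3* took different courses in the 2 genotypes. In WT it went from 35.3 and 28.0 CPM at 0 h to 23.5 and 27.0 CPM at 1 h, 19.6 and 29.8 CPM at 2 h and 23.2 and 28.6 CPM at 3 h. In A5-KO it went from 39.1 and 35.4 CPM to 29.9 and 33.5 CPM at 1 h, 23.2 and 23.1 CPM at 2 h and 14.6 and 12.7 CPM at 3 h. The A5-KO libraries began above WT, met it at 2 h and ended below it. The change over 3 h was -0.28 in WT (95% interval -0.64 to 0.09, limma adjusted p = 0.32) and -1.38 in A5-KO (95% interval -1.75 to -1.02, limma adjusted p = 4.9e-06).

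*CYP26B1* fell within the first hour in both genotypes. WT went from 60.7 and 56.0 CPM to 25.4 and 27.7 CPM at 1 h, then to 25.8 and 41.8 CPM at 2 h and 36.0 and 32.9 CPM at 3 h. A5-KO went from 56.5 and 51.6 CPM to 35.6 and 27.6 CPM, then 25.4 and 26.9 CPM, then 25.7 and 23.5 CPM. WT was higher again at 3 h than at 1 h in both libraries, and A5-KO was not. From 0 to 1 h the change was -1.11 in WT (SE 0.17, limma adjusted p = 0.00021) and -0.77 in A5-KO (SE 0.17, limma adjusted p = 0.0027), the latter at -0.59 (adjusted p = 0.051) without the second library at 1 h. From 0 to 3 h it was -0.74 in WT (limma adjusted p = 0.0079, but 0.11 without the first library at 0 h) and -1.11 in A5-KO (limma adjusted p = 4.2e-05).

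*RARG*, the third receptor, kept most of its share. WT was at 8.26 and 7.22 CPM at 1 h, 6.29 and 7.31 CPM at 2 h and 5.70 and 6.32 CPM at 3 h, and A5-KO at 5.70 and 4.21 CPM, 4.85 and 4.13 CPM, and 3.52 and 3.57 CPM. Both A5-KO values were under both WT values at every time. Over 3 h the change was -0.34 in WT (limma adjusted p = 0.2) and -0.51 in A5-KO (limma adjusted p = 0.018, under 1.5-fold).

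*ALDH1A1* gained share in both genotypes. WT rose to 174.1 and 167.4 CPM at 1 h, 175.9 and 158.9 CPM at 2 h and 188.8 and 206.7 CPM at 3 h, and A5-KO to 211.0 and 234.2 CPM, 236.4 and 238.2 CPM, and 251.4 and 263.3 CPM. The A5-KO libraries were above the WT libraries at each of the 4 times. Over 3 h the change was 0.40 in WT (limma adjusted p = 0.0039) and 0.34 in A5-KO (limma adjusted p = 0.0019), both under 1.5-fold. *CRABP2* stayed between 12.0 and 18.2 CPM in WT and between 9.49 and 17.9 CPM in A5-KO, with the lowest value of all in 1 A5-KO library at 0 h. Its change over 3 h was -0.09 in WT (95% interval -0.47 to 0.28) and 0.35 in A5-KO (95% interval -0.02 to 0.73).

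These falls stand against a general loss. From 0 to 1 h, 2 of the 6 members were called lower and 0 higher by limma in WT, where 15.3% of the 13620 genes tested were lower and 0.206% higher. In A5-KO 1 was lower and 0 higher, where 16.7% were lower and 1.06% higher. From 0 to 3 h, 2 were lower and 0 higher in WT, against 10.1% and 0.338% of all genes (1375 lower, but 208 without the first WT library at 0 h and 606 without the first at 3 h), and 3 were lower and 0 higher in A5-KO, against 30.9% and 2.15%. At an unadjusted p under 0.05, 1 of the 6 members (*ALDH1A1*, or *CRABP2* in A5-KO at 1 h) was higher in each of these 4 comparisons. edgeR called 0 members higher in WT at both times, 1 in A5-KO at 1 h and 2 in A5-KO at 3 h. Over 3 h the median change of the members was -0.31 in WT and -0.81 in A5-KO, and that of all genes was -0.09 and -0.22.

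The scale of the comparison matters here. Median-of-ratios scaling, which centres each library on its typical gene, moved the median of all genes from -0.22 to 0.03 for 0 to 3 h in A5-KO. It moved from -0.14 to 0.0049 for 0 to 1 h in A5-KO, from -0.12 to 0.016 for 0 to 1 h in WT, and from -0.13 to -0.0075 between genotypes at 3 h. Under it 3064 genes were lower and 1554 higher over 3 h in A5-KO, in place of 4210 and 293. Over 1 h in A5-KO the split was 1607 and 516 in place of 2281 and 144, and between genotypes at 3 h it was 1868 and 376 in place of 2411 and 157. *ALDH1A1* (0.63) and *CRABP2* (0.62) were then called higher over 3 h in A5-KO, while *RARA*, *DHRS3* and *CYP26B1* were still called lower there. In hILOs the same scaling moved the median of all genes between genotypes from -0.06 to -0.0041. There 624 genes were lower and 572 higher in place of 707 and 467.

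At 3 h of Act D, A5-KO PPs had less of 3 of the 6 members tested and no member was called higher by limma. At an unadjusted p under 0.05, 4 were lower and 1 was higher, and edgeR called 0 higher. Among all 13620 genes 17.7% were lower and 1.15% higher, and the medians were -0.55 over the members and -0.13 over all genes. *RARA* differed by -1.37 (SE 0.31, limma adjusted p = 0.0034), *DHRS3* by -0.87 (SE 0.17, limma adjusted p = 0.0012) and *RARG* by -0.62 (SE 0.17, limma adjusted p = 0.011). None of the 3 was called at 0 h, where *RARG* stood at -0.46 without passing the test. *ALDH1A1* differed by 0.38 (limma adjusted p = 0.002) and *CYP26B1* by -0.47 (limma adjusted p = 0.045), both under 1.5-fold, and *CRABP2* by 0.12 (95% interval -0.25 to 0.50). All of these differences rest on the WT libraries at 3 h, which did not simply continue the fall seen at 1 h. Over all genes, 1375 were called lower from 0 to 3 h in WT, against 2081 from 0 to 1 h. The reason was not tested. *RARG* lost its call without the second WT library or either A5-KO library (adjusted p 0.052 to 0.071), and under median-of-ratios scaling it was at -0.51, under 1.5-fold. Without the second A5-KO library at 3 h, 1 member in place of 3 was called lower, *DHRS3* alone, with *RARA* at -1.09 (adjusted p = 0.059).

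To ask whether the members were lost at different rates, a line was fitted through log2(CPM + 0.1) over the 4 times in each genotype and the slopes were compared with limma. *DHRS3* fell faster in A5-KO, by -0.39 per hour on the log2 scale (SE 0.092, 95% interval -0.58 to -0.19, adjusted p = 0.045). That call just passed the limit and was lost in 14 of the 16 fits that left out 1 library, with a pseudocount of 1, without a filter, and under median-of-ratios scaling, the replicate block and edgeR (adjusted p 0.050 to 0.15 over these), so it is a weak one. It was the single member called, where 2.61% of the 13620 genes fell faster and 0.0661% more slowly in A5-KO. No member was called slower by limma, by edgeR or at an unadjusted p under 0.05. *RARA* had the larger difference of -0.61 per hour (SE 0.19), which did not pass the test (adjusted p = 0.077). *CYP26B1* differed by -0.17 per hour (95% interval -0.47 to 0.13), *RARG* by -0.06 (95% interval -0.24 to 0.12), *CRABP2* by 0.10 (95% interval -0.11 to 0.31) and *ALDH1A1* by -0.01 (95% interval -0.09 to 0.08).

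The estimates also depended on which times entered. From 0 and 3 h alone, both *DHRS3* (-0.38, adjusted p = 0.0033) and *RARA* (-0.54, adjusted p = 0.0052) fell faster in A5-KO. From 0 and 1 h alone both turned positive, at 0.09 and 0.43 per hour, with neither passing the test. Without both WT libraries at 3 h *DHRS3* was at -0.29 (adjusted p = 0.77) and *RARA* at -0.32 (adjusted p = 0.83), and no gene of all those tested was called. Without both WT libraries at 2 h, which differed most from each other, *DHRS3* was at -0.40 (adjusted p = 0.012) and *RARA* at -0.64 (adjusted p = 0.018). These last settings were added after the data were seen.

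As half-lives relative to the library total, fitted within each replicate number as a description, *RARA* had 1.55 and 3.19 h in the WT series against 1.12 and 1.09 h in the A5-KO series. *DHRS3* had 3.41 h in 1 WT series and did not fall in the other, against 2.29 and 2.45 h in A5-KO. *CYP26B1* had 2.35 and 3.36 h against 2.199 and 2.26 h, and *RARG* 7.72 and 9.74 h against 7.97 and 4.14 h. The A5-KO series were the faster ones for *RARA*, *DHRS3* and *CYP26B1*, with no overlap, and the genotypes overlapped for *RARG*. Each series joins libraries by replicate number, although the numbers were not taken as pairs, and each line was held to its value at 0 h. The lack of overlap is therefore no test, and the slope difference of *CYP26B1* above had an interval of -0.47 to 0.13. *ALDH1A1* fell in none of the 4 series, and *CRABP2* in only 1 of them.

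**Figure D4:**
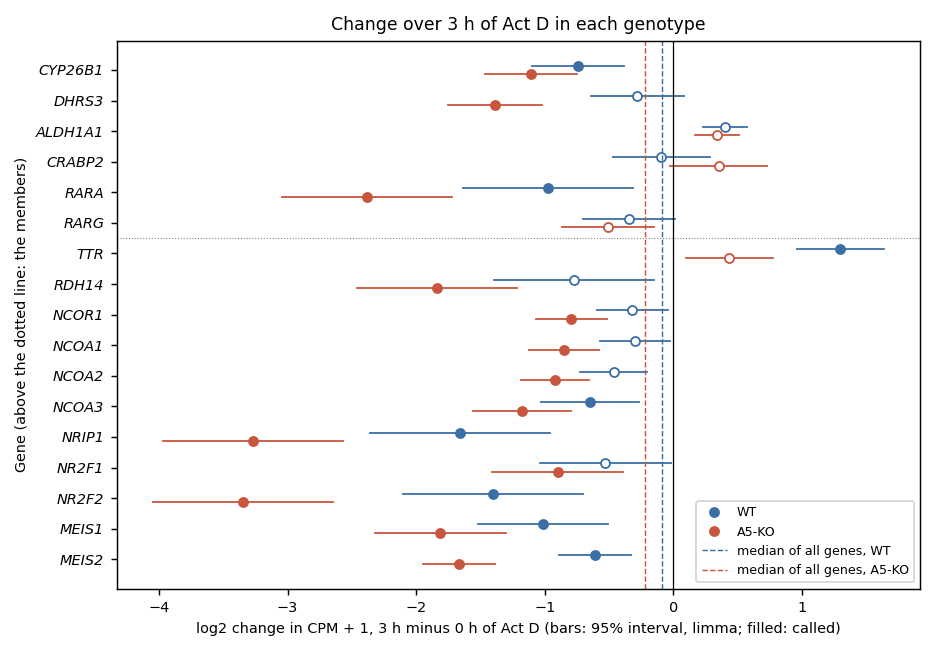
Change from 0 to 3 h of Act D (log2 of CPM + 1) in WT (blue) and A5-KO (red) for the 6 members tested and, below the dotted line, the other retinoid pathway genes called in at least 1 genotype, with 95% intervals from limma, filled symbols for called genes and dashed lines at the median of all genes. *RARA* reaches -2.38 and *DHRS3* -1.38 in A5-KO, against -0.98 and -0.28 in WT.

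The mark that ALKBH5 removes sits in a short context of which GGACT is the best known form, mostly near stop codons. In the canonical GENCODE transcripts, GGACT was found 4 times in *DHRS3* and *CYP26B1*, 3 times in *RARA*, *RARG* and *CYP26A1*, 5 times in *RARB*, 2 times in *CRABP2*, once in *ALDH1A1* and 0 times in *CRABP1*, against a median of 3 over 11841 transcripts. The transcripts differ in length, so counts and densities rank the members differently. Per kilobase, GGACT was densest in *CRABP2*, which was not lower at 3 h in A5-KO, at 2.05 (percentile 92.7 of these transcripts). *DHRS3* had 1.82 (88.6), *RARG* 1.03 (57.0), *RARA* 0.92 (49.8) and *ALDH1A1* 0.48 (19.3). The copies nearest the stop codon in the members that were lower at 3 h in A5-KO, and in *ALDH1A1*, which was not, read as follows in the direction of the gene, with GGACT in capitals.
DHRS3: gacctttgcacaGGACTgatgggtataact
RARA: tgggccctcagtGGACTgcctgctcccaca
RARG: gagcctgggtttGGACTctaaaatctcagc
ALDH1A1: tataaagtccttGGACTgttttgaaaagtt
These stand at chr1:12568154-12568183, chr17:40356399-40356428, chr12:53211403-53211432 and chr9:72900766-72900795 of GRCh38, all in the 3′ untranslated region. GGACT began 169, 185, 256 and 425 bases after the stop codon. *CRABP2* and *CYP26B1* were not called at 3 h either. Their nearest copies began 302 bases after the stop codon and, within the coding sequence, at -60 from its end. The letters do not say that a site carries the mark, and no m6A data were analysed here. ATTTA, the core of AU-rich elements known to shorten the life of an mRNA, was found 0 times in the 3′ untranslated region of *DHRS3* (430 bases) and *CRABP1*, once in *CRABP2*, 2 times in *RARA* (1417 bases) and *ALDH1A1* (537 bases), 3 times in *RARG*, 4 times in *CYP26A1* and *RARB* and 5 times in *CYP26B1* (2989 bases), against a median of 2. Among the members that fell the count ran from 0 to 5, and among *ALDH1A1*, *CRABP2* and *RARG* from 1 to 3. Per kilobase of this region, *ALDH1A1* (3.72), *RARG* (2.71) and *CRABP2* (2.38) had more than *CYP26B1* (1.67), *RARA* (1.41) and *DHRS3* (0).

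The rest of the pathway was followed with 44 other genes of retinoid uptake, synthesis, breakdown, receptors, cofactors and targets. In hILOs, 36 were tested, 5 were higher in A5-KO and 0 lower, where 2.7% of all genes were higher and 4.09% lower. The higher count was 3 without a filter on low values and 4 under the replicate block. It was also smaller with any 1 of the libraries left out, so it is not a firm count. The 5 were *TTR* (1.31), which carries retinol-binding protein in blood, *RBP2* (0.65), which binds retinol in the cell, *ADH4* (0.70), an alcohol dehydrogenase that can oxidise retinol, and the retinoic acid targets *RARRES1* (0.73) and *NR2F1* (1.47). *NR2F1* had 0.77 and 0.81 TPM in the WT libraries against 4.40 and 3.58 TPM in the A5-KO libraries, with no overlap, while 7 of the 9 targets tested were not called. *TTR* is also 1 of the 8 hepatic markers. The partner receptor *RXRA* had 29.1 and 29.8 TPM against 38.4 and 37.5 TPM, a difference of 0.36 under 1.5-fold. At an unadjusted p under 0.05, 3 of the 36 were lower and 11 higher, against 3238 and 2106 of all 17300 genes.

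In PPs at 0 h, 1 of 28 genes tested was called, *TTR* (2.19), which was higher. It had at most 7.41 CPM in WT against 35.1 and 35.7 CPM in A5-KO. *ALDH1A2*, the main retinoic acid producing enzyme of the embryo, was at 113 and 117 CPM in WT and 127 and 111 CPM in A5-KO at 0 h. In hILOs it had 4.42 and 4.59 TPM in WT against 2.89 and 2.09 TPM in A5-KO, and the difference of -0.67 did not pass the test (limma adjusted p = 0.097). CPM and TPM are different units, so its levels at the 2 stages were not compared. *CYP26C1* was at 0 in all 20 libraries. *RXRB* was at 28.2 to 32.4 TPM in hILOs but at most 1.64 CPM in PPs, and it lies in the extended MHC region of chromosome 6, where 77 of 97 genes with at least 10 TPM in hILOs were under 2 CPM in every PP library, against 1261 of 9369 elsewhere, so its PP value was not used.

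At 3 h, 6 of 29 pathway genes tested were lower in A5-KO PPs and 1 was higher (*TTR*, 1.33), where 17.7% of all genes were lower and 1.15% higher, so the lower count is near the general share. Of the 6, 3 are among the 8 genes tested that are known to respond to retinoic acid, of which 5 were not called. The 3 were the transcription factors *NR2F2* (-1.57), *MEIS2* (-1.24) and *MEIS1* (-1.22). The others were *NRIP1* (-1.51), a corepressor, *NCOA3* (-0.75), a coactivator, and *RDH14* (-0.97), a retinol dehydrogenase. *NR2F2* was at 15.8 and 12.0 CPM in WT and 4.94 and 3.19 CPM in A5-KO at 3 h, from 43.5 and 33.3 CPM and from 55.1 and 44.8 CPM. It was not called at 0 h. The median over the 29 genes was 0.0029 against -0.13 over all genes. All 5 progenitor markers tested were also called lower at 3 h, and 4 of 8 hepatic markers higher. At 0 h, 1 of the 5 was called lower and 5 of the 8 hepatic markers higher. Their part in these differences was not tested.

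Over 3 h of Act D, 5 pathway genes were lower and 1 higher in WT, and 10 were lower and 0 higher in A5-KO, of 29 tested in each. Among all genes 10.1% were lower and 0.338% higher in WT and 30.9% and 2.15% in A5-KO, so the A5-KO count is near the general share. At an unadjusted p under 0.05, 7 were higher in A5-KO, and edgeR called 6 higher there. Over 1 h, 6 were lower and 0 higher in WT, and 9 lower and 2 higher in A5-KO, beside 15.3% and 0.206% of all genes in WT and 16.7% and 1.06% in A5-KO, where the WT count at an unadjusted p under 0.05 was 3 higher and edgeR called 0. The 2 were the retinol-binding proteins *RBP2* (0.66) and *RBP4* (0.89). The lower counts over 1 h depended on the processing. In WT the 6 became 4 without a filter, and in A5-KO the 9 became 5 under median-of-ratios scaling or by edgeR. Both were smaller in some of the fits that left out 1 library. The steepest falls over 3 h in A5-KO were those of *NR2F2* (-3.34) and *NRIP1* (-3.27), against -1.40 and -1.66 in WT. At 1 h *NR2F2* was at 8.69 and 9.04 CPM in WT and at 11.3 and 10.4 CPM in A5-KO. *NRIP1* was then at 4.75 and 6.96 CPM in WT and at 6.41 and 4.53 CPM in A5-KO. In WT both genes stood higher at 3 h than at 1 h, with *NRIP1* at 7.46 and 10.5 CPM at 3 h. In A5-KO both stood lower at 3 h than at 1 h, and the reason was not tested. In the comparison of slopes, *MEIS2* (-0.34 per hour, adjusted p = 0.045) fell faster in A5-KO, 1 of 29 tested beside 2.61% of all genes. It lost its call in 14 of the 16 fits that left out 1 library, with a pseudocount of 1, without a filter, and under median-of-ratios scaling and the replicate block, and kept it by edgeR (adjusted p = 0.047). Of the pathway genes 0 were called slower by limma or edgeR, with 1 slower at an unadjusted p under 0.05.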

How the data were processed

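The authors trimmed reads with fastp and aligned them to hg38 with HISAT2 (2.1.0 in the submitters' processing notes). They deposited TPM per gene for 4 hILO libraries and CPM per gene for 16 PP libraries, the latter without spike-ins. The annotation release and the counter behind the CPM are not given in the sources used here, and the conversion to amounts by spike-ins was not repeated. Symbols and coordinates came from GENCODE v44 (60369 of 60623 PP identifiers matched). All deposited CPM values were whole multiples of 1 read within 0.01 read, which gave the depth.

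limma 3.58.1 (R 4.3.3, eBayes with a trend) was run on log2(TPM + 1) and log2(CPM + 1) of genes with a mean of at least 1, and for slopes on log2(CPM + 0.1), with p-values adjusted over all genes. PPs at 0 h had a fit of their own, and later times came from 1 fit of all 16 PP libraries. edgeR 4.0.16 and DESeq2 1.42.0 on recovered reads were alternatives, beside scaling, filter, pseudocount, replicate block and each library left out. The scripts were tested on simulated data. The 9 members and all lists were chosen with earlier results of these data known. All members were named, and of the 44 other pathway genes those called in a comparison. *ALDH1A2*, *RXRA*, *RXRB* and *CYP26C1* were named after their values were seen. Some pathway genes are not reported here and were left out of the counts of that list.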

Additional observations from a re-analysis of the deposited data

Results flagged for a closer look

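The difference of decay slopes of *DHRS3* between genotypes (-0.39 per hour on the log2 scale, A5-KO minus WT) was singled out because the test of the difference itself passed, with limma's adjusted p at 0.045, just under the limit. Both A5-KO libraries at 3 h (14.6 and 12.7 CPM) were under both WT libraries (23.2 and 28.6 CPM), and the difference at 3 h held with any 1 of those 4 libraries left out (-0.73 to -1.02, adjusted p 0.0022 to 0.022). The slope difference kept its sign in every leave-one-out fit (-0.33 to -0.45) and lost its call in 14 of 16, with adjusted p between 0.053 and 0.15.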

How the results depend on the processing

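In hILOs, the 1 member called lower became 0 without a filter on low values, under the replicate block and with any library left out. From 0 to 1 h in WT, the 2 called lower became 1 without a filter, and 1 without the first library at 0 h or either at 1 h. In A5-KO the 1 called lower became 0 without the second library at 1 h, and the 0 called higher became 1 by edgeR or without the second library at 0 h. From 0 to 3 h in WT, the 2 called lower became 1 with a pseudocount of 0.1 or the replicate block (across or within genotypes), 0 without a filter, and 0 to 1 with a library left out (0 without the first at 0 h). In A5-KO the 0 called higher became 2 under median-of-ratios scaling or by edgeR, and 1 without the second library at 0 h. At 3 h, the 3 called lower became 1 without the second A5-KO library. Of slopes, the 1 called lower became 0 with a pseudocount of 1, no filter, median-of-ratios scaling, the replicate block (across or within genotypes), edgeR, 0 and 1 h alone, or without both WT 3 h libraries, 2 with 0 and 3 h alone or without both WT 2 h libraries, and 0 to 2 with a library left out (2 without the first WT library at 0 or 2 h). A fit without a library has fewer samples, and a fit without the filter tests more genes. Why any of these counts moved was not tested.

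Signs turned only for differences that did not pass the test, apart from *DHRS3* (0.087 per hour from 0 and 1 h alone). They were *RARB* in hILOs (0.028 by quantile normalization, -0.23 to 0.067 leave-one-out), *RARA* at 0 h (-0.0091 by median-of-ratios scaling, -0.010 by edgeR, -0.0092 by DESeq2, -0.14 to 0.20 leave-one-out), *RARG* over 1 h in WT (0.10, 0.11 by edgeR, -0.11 to 0.060 leave-one-out) and A5-KO (0.0013, 0.0073, -0.31 to 0.048), and *CRABP2* over 3 h in WT (0.00042, -0.19 to 0.00045 leave-one-out). Among slopes they were *CYP26B1* (0.35 from 0 and 1 h, 0.046 without WT 3 h), *RARA* (0.43 from 0 and 1 h), *ALDH1A1* (0.064 by median-of-ratios scaling, 0.062 by edgeR, -0.022 to 0.018 leave-one-out, 0.030 without WT 3 h), *RARG* (0.0067, 0.0063 by edgeR) and *CRABP2* (-0.0080 to 0.14 leave-one-out).

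Same-numbered libraries showed only weak and uneven shared deviation. Between genotypes r was 0.009 in hILOs and -0.07 to 0.19 in PPs, highest at 0 h, and between times of 1 genotype it was -0.26 to 0.17. The numbers were not taken as pairs, although correlations over all genes cannot show whether libraries shared a batch. The study's reporting form says of its cell culture in general that the wells of a replicate came from 1 batch of cells. A block within each genotype was therefore added after the data were seen. Under either block, genes with different slopes went from 355 lower and 9 higher to 0, and under the replicate block calls in hILOs went from 707 and 467 to 385 and 289 and at 0 h from 157 and 218 to 266 and 365. With 1 library left out the hILO calls fell to between 96 and 203 lower and between 83 and 118 higher. Lower calls over 1 h fell from 2081 to 1148 in WT and from 2281 to 1323 in A5-KO without the first library at 0 h. Without a filter the slopes also gave 0 calls and hILOs 187 and 143, and leaving out libraries took the slope calls to between 0 and 1442 lower. For a comparison of 2 groups with 2 libraries each, such as the genotypes at 1 stage and time, an exact permutation test cannot pass 0.05.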
